A study of Mus musculus with 24 samples.

Results

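The 10 genes of transforming growth factor beta (TGF-beta) and bone morphogenetic protein (BMP) signalling described here were measured in newborn mouse lung. They are 4 ligands (Tgfb1, Tgfb2, Tgfb3, Bmp4), 4 receptors (Tgfbr2, Bmpr2, Acvrl1, Eng) and 2 feedback Smads (Smad6, Smad7). They were found by symbol in the annotation sheet of the deposited data and make 10 of the 57010 genes counted. All 10 passed the filter on low counts that left 23831 genes to test. At PN3, 4 of the 10 were called lower in O2 than in RA in SeS lungs and 8 in SeD lungs (5 without 1 library that stood apart). In SeD 1 was left when only the groups compared were fitted. Of all genes tested, 11.5% in SeS and 12.2% in SeD were called lower at PN3. Among genes with a mean of at least 5 counts per 1 M the shares were 19.5% and 20.5%. At PN1, 0 of the 10 in SeS and 1 in SeD were called lower, beside 0.0126% and 1.1% of all genes. Eng, a co-receptor of endothelial cells, fell the most, to 0.651 of its RA level in SeS and to 0.611 in SeD.

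C3H/HeN mice were given a selenium-sufficient diet (SeS, 0.4 ppm sodium selenite) or a selenium-deficient one (SeD, less than 0.01 ppm) from a young age, were bred on it, and their pups were studied. From the day of birth the pups breathed room air (RA, FiO2 0.21) or hyperoxia (O2, FiO2 0.85), and lungs perfused with saline were taken after 24 h (PN1) or 72 h (PN3). The 8 groups were SeS RA, SeS O2, SeD RA and SeD O2 at each age, with 3 libraries each and 24 in all. All mice were of 1 strain with no engineered allele, the diet reached the pups through their dams before and after birth, and dams were moved between gases every day. The labels do not say which pups shared a litter, so that the p-values measure the spread between these libraries, and the sex of the pups did not enter the model.

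TGF-beta ligands are secreted in a latent form, are released from the matrix, and bind TGFBR2, which then recruits a type I receptor and has SMAD2 and SMAD3 phosphorylated. BMP ligands bind type II receptors such as BMPR2 together with type I receptors such as ALK1 (the product of Acvrl1) and have SMAD1, SMAD5 and SMAD9 phosphorylated, with SMAD4 as the shared partner in both arms. SMAD6 and SMAD7 are made in response to these signals and restrain them, and in the lung both arms act in alveolar septation and in the growth of its vessels.

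Each library held 26 to 50.4 M counts (median 32.6 M). The libraries carried lung markers throughout, with alveolar type 2 markers summing to 9729 to 24980 CPM (counts scaled to a library of 1 M with TMM factors). Liver transcripts stood out in SeD O2 PN3 replicate 1, where Alb, the albumin gene, reached 40170 CPM. Alb was also at 3932 and 2614 CPM in SeD O2 PN1 replicates 1 and 2 and at most at 955 CPM elsewhere. SeD O2 PN3 replicate 1 also held the lowest value of 7 of the 10 genes (Tgfb2, Tgfb3, Tgfbr2, Bmp4, Bmpr2, Acvrl1 and Smad7). Calls resting on it are therefore given with and without it, while correlations over all libraries are given only with it. SeS O2 PN1 replicate 2 is titled hyperoxia while its oxygen field says FiO2 0.21, and was taken as O2 by its title and the deposited sheet of groups. Placed in SeS RA PN1 instead, it changed no count of called genes among the 10 by more than 1.5 times. For O2 in SeS over both ages this placement ended the call of Bmpr2 and brought in that of Smad7 (log2 fold change -0.31, edgeR adjusted p = 0.0431).

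Per kilobase of exon, the receptors and Smad6 were the most abundant of the 10 genes and Smad7 the least, as means over all libraries. In SeD RA at PN1 Tgfb3 was below Smad7 (10.62 against 11.85 CPM per kb). In SeS RA lungs at PN3 the level was 45.3 ± 3.8 CPM per kb for Acvrl1 (SD, n = 3, as for all levels here) and 40.7 ± 5.5 for Smad6. Tgfbr2 stood at 36.7 ± 2.5, Eng at 31.9 ± 3.8 and Bmpr2 at 29.2 ± 2.5 CPM per kb. Tgfb2 led the ligands at 24.8 ± 0.87 CPM per kb, before Bmp4 at 19.3 ± 0.78, Tgfb1 at 14.7 ± 1.2 and Tgfb3 at 13.4 ± 0.33, with Smad7 at 13 ± 1.1. Neighbours in this order differed by less than their summed SDs except at 3 steps, from Bmpr2 to Tgfb2, from Tgfb2 to Bmp4 and from Bmp4 to Tgfb1. Across the 8 groups the highest group mean was 1.27 times the lowest for Tgfb3 and for Tgfbr2 and 1.74 times for Tgfb2, the widest range of the 10.

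**Figure D1:**
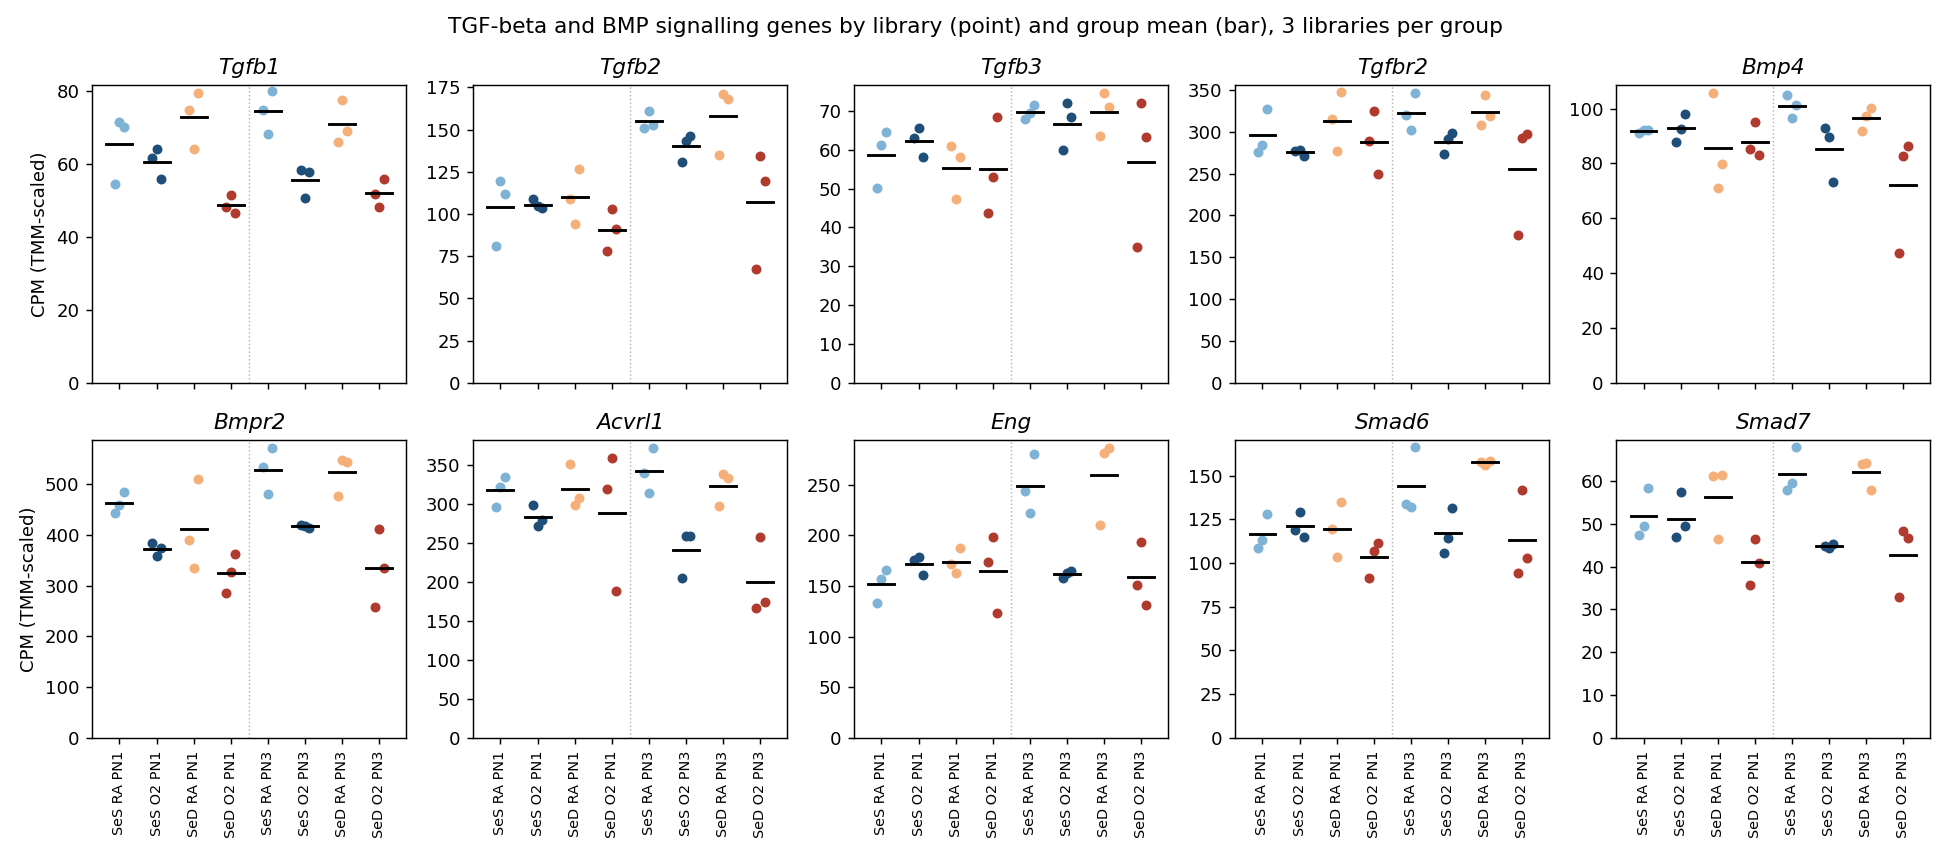
Level (CPM, scaled by TMM, linear axis from 0) of each of the 10 genes in the 24 libraries. Each point is 1 library and each bar the mean of 3, with PN1 left and PN3 right of the dotted line. At PN3 the O2 points of every gene but Tgfb3 lie below all RA points of the same diet, as for Eng in SeS with 158 to 165 CPM in O2 and 222 to 280 CPM in RA.

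For 7 of the 10 genes there was a promoter in the RefSeq table used (GRCm38.p6, 250 bases before the start site and 50 after it), and 3 short motifs that Smad proteins are known to bind were searched for on both strands. GTCTAGAC, the palindromic Smad element, was in 70 of the 32851 promoters of the table (0.213%) and, of these genes, in that of Smad6. GGCGCC, a GC-rich Smad site and also a palindrome, was in 11.9% of all promoters and here in that of Bmpr2. CAGACA, which shares the letters AGAC with the first motif, was in 21% of all promoters and here in that of Tgfb2. The Smad6 and Bmpr2 promoters are shown, with the motif in capitals, as those of a feedback Smad and a BMP receptor that hold a match. Both genes were called lower in O2 at PN3 in SeD but not in SeS. Smad6 was not called without SeD O2 PN3 replicate 1. A match is a run of letters and says nothing of binding in these lungs. The promoters lie at chr9:64022010-64022309 on the minus strand (Smad6) and at chr1:59764029-59764328 on the plus strand (Bmpr2), and GTCTAGAC begins 4 bases before the start site of Smad6 and GGCGCC 105 bases before that of Bmpr2.
Smad6: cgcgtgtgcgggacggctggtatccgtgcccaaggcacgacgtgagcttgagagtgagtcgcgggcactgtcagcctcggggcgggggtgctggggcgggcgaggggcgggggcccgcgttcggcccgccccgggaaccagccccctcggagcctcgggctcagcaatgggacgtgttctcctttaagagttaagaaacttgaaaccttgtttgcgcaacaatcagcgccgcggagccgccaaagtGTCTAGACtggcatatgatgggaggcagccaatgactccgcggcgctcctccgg
Bmpr2: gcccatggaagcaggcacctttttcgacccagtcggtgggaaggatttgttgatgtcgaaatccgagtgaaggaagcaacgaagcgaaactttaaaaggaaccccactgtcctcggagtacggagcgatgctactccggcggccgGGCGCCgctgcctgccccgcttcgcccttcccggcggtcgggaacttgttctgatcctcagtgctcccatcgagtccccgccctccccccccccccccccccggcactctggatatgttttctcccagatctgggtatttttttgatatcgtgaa

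The first question was what 72 h of O2 did to these genes at PN3. A gene was called changed at an adjusted p under 0.05 over the 23831 genes and an absolute log2 fold change above 0.25. In SeS, 4 of the 10 genes were called lower in O2 (Eng, Acvrl1, Smad7 and Tgfb1) and none higher, where 11.5% of all genes tested, and 19.5% of the 12591 with a mean of at least 5 CPM, were called lower. In SeD, 8 of 10 were called lower (those 4 with Bmpr2, Tgfb2, Smad6 and Bmp4), where 12.2% of all genes and 20.5% of those of at least 5 CPM were. Every O2 library lay below every RA library for 9 of the 10 genes in each diet, against 34.5% of genes of at least 5 CPM in SeS and 27.4% in SeD. The median log2 fold change of the 10 genes was -0.32 in SeS and -0.51 in SeD, beside medians over all genes of 0.04 and 0.05. Over genes of at least 5 CPM the medians were -0.094 in SeS and -0.091 in SeD. Without SeD O2 PN3 replicate 1 the calls in SeD came to 5 of 10 (Tgfb1, Bmpr2, Acvrl1, Eng and Smad7) and the median of the 10 to -0.35, with 7.55% of all genes called lower. When only the 6 SeD libraries of PN3 were fitted 1 call was left, that of Tgfb1, and without SeS RA PN3 replicate 3 the SeS calls came to 2.

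**Figure D2:**
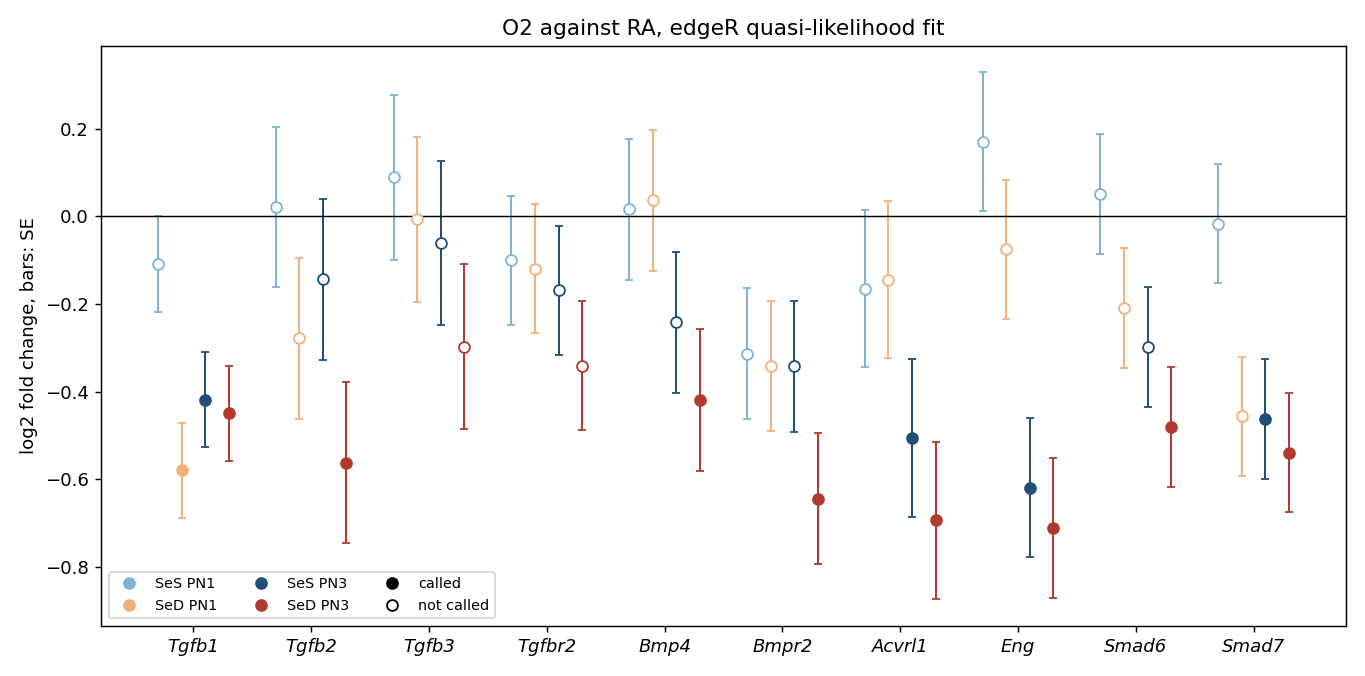
Log2 fold change of O2 against RA for each gene (points, bars ± SE from edgeR's quasi-likelihood fit of all 24 libraries) in 4 comparisons of 3 against 3 libraries. Filled points passed both thresholds: 1 gene in SeD at PN1, 4 in SeS at PN3 and 8 in SeD at PN3. Eng runs from 0.17 in SeS at PN1 to -0.71 in SeD at PN3.

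Among the ligands, Tgfb1 was lower in O2 at PN3 in both diets. Tgfb1 (chr7:25386390-25404506 in GRCm39) encodes TGF-beta 1, the ligand best known from fibrosis and immune regulation. It was at 74.9, 68.4 and 80 CPM in SeS RA and at 58.5, 50.8 and 57.9 CPM in SeS O2. In SeD it was at 66.2, 77.5 and 69.1 CPM in RA and at 51.7, 48.3 and 55.8 CPM in O2. All 6 O2 libraries were below all 6 RA libraries, and the O2 spread was small in both diets. The log2 fold change was -0.42 in SeS (SE 0.109, edgeR adjusted p = 0.00926) and -0.45 in SeD (SE 0.109, edgeR adjusted p = 0.00392), and both calls held without any 1 library.

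Tgfb2 (chr1:186354985-186438294), whose product acts in epithelial and heart development, was called lower in SeD but not in SeS. SeD RA libraries held 135, 171 and 168 CPM and SeD O2 libraries 67.6, 134 and 120 CPM, with replicate 1 of O2 far below the other 2. Its log2 fold change was -0.56 (SE 0.184, edgeR adjusted p = 0.0207), and without that replicate -0.29 (SE 0.143, edgeR adjusted p = 0.142). It was also not called without SeD RA PN3 replicate 2. In SeS, 151, 161 and 153 CPM in RA stood against 131, 143 and 146 CPM in O2, a log2 fold change of -0.14 with a 95% interval from -0.52 to 0.24.

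Tgfb3 (chr12:86102756-86126301), the third TGF-beta ligand and known from palate fusion, was the only one of the 10 whose O2 and RA libraries overlapped at PN3 in both diets. In SeD it was at 63.6, 74.7 and 71.1 CPM in RA and at 34.9, 72 and 63.4 CPM in O2. Its log2 fold change was -0.30 (SE 0.188, edgeR adjusted p = 0.236) and it was -0.02 without replicate 1. Bmp4 (chr14:46620250-46636745) encodes a BMP ligand needed for lung bud and vessel development. It was at 91.8, 97.4 and 100 CPM in SeD RA and at 47.3, 82.7 and 86.5 CPM in SeD O2, a log2 fold change of -0.42 (SE 0.161, edgeR adjusted p = 0.0465). This call lay close to the threshold and was lost without any 1 of 10 libraries, with a log2 fold change of -0.17 without replicate 1 of O2. It was also lost under 7 of 10 other settings. Among them were the replicate number as a block (adjusted p = 0.058), DESeq2 (adjusted p = 0.0529) and limma's voom (adjusted p = 0.0858). In SeS Bmp4 was at 105, 96.6 and 101 CPM in RA and at 93.1, 89.6 and 73.4 CPM in O2 and was not called by edgeR (log2 fold change -0.24, SE 0.161) but was by limma's voom (-0.30, adjusted p = 0.0157).

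Of the receptors, Eng and Acvrl1 were lower in both diets, and both are known as receptor genes of endothelial cells. Over all libraries Acvrl1 went most closely of the receptors with summed endothelial markers (r = 0.923) and Eng least (r = 0.655). Mutations of either Eng or Acvrl1 cause hereditary haemorrhagic telangiectasia in people. Eng (chr2:32535543-32574661) encodes endoglin, which presents BMP9 and BMP10 to ALK1. It was at 244, 222 and 280 CPM in SeS RA and at 158, 163 and 165 CPM in SeS O2. In SeD it was at 210, 282 and 286 CPM in RA and at 151, 193 and 131 CPM in O2. The groups did not overlap in either diet. The log2 fold change was -0.62 in SeS (SE 0.158, edgeR adjusted p = 0.00841) and -0.71 in SeD (SE 0.159, edgeR adjusted p = 0.00247), and was -0.65 in SeD without replicate 1 of O2 (edgeR adjusted p = 0.0128).

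Acvrl1 (chr15:101025996-101043217) was at 340, 314 and 372 CPM in SeS RA and at 205, 259 and 259 CPM in SeS O2. In SeD the RA libraries held 297, 338 and 333 CPM and the O2 libraries 167, 258 and 174 CPM. In both diets the lowest RA library was above the highest O2 library. The log2 fold change was -0.51 in SeS (SE 0.18, edgeR adjusted p = 0.0402) and -0.69 in SeD (SE 0.18, edgeR adjusted p = 0.00582). The SeS call was lost without any 1 of 8 libraries, while the SeD call was kept under each of them, with a log2 fold change of -0.55 without replicate 1 of O2.

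Bmpr2 (chr1:59802544-59918173), the BMP type II receptor whose loss causes heritable pulmonary arterial hypertension in people, fell in SeD. It was at 476, 548 and 544 CPM in SeD RA and at 257, 412 and 335 CPM in SeD O2, a log2 fold change of -0.64 (SE 0.15, edgeR adjusted p = 0.00308) and of -0.46 without replicate 1 of O2 (edgeR adjusted p = 0.0189). In SeS its O2 libraries were tightly grouped, at 418, 418 and 413 CPM, below 533, 480 and 571 CPM in RA. That log2 fold change of -0.34 (SE 0.149) had an edgeR adjusted p of 0.0912 and was not called, but passed in limma's voom (-0.35, adjusted p = 0.00236), with only the groups compared (adjusted p = 0.0216) and without the 3 libraries with the most Alb (adjusted p = 0.0409). Tgfbr2 (chr9:115913361-116004800), the type II receptor of TGF-beta, was not called in either diet, at -0.17 in SeS (SE 0.147, edgeR adjusted p = 0.42) and -0.34 in SeD (SE 0.147, edgeR adjusted p = 0.0756). It was at 308, 344 and 319 CPM in SeD RA and at 177, 293 and 297 CPM in SeD O2, and at -0.11 without replicate 1.

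Of the feedback genes Smad7 fell in both diets and Smad6 in SeD. Smad7 (chr18:75500374-75529006), which restrains TGF-beta receptors, was at 57.9, 59.5 and 67.8 CPM in SeS RA and at 44.8, 44.3 and 45.3 CPM in SeS O2. In SeD it was at 64, 64.2 and 57.8 CPM in RA and at 33, 48.3 and 46.7 CPM in O2. No O2 library reached an RA library of its diet. The log2 fold change was -0.46 in SeS (SE 0.136, edgeR adjusted p = 0.0169, and 0.0649 without SeS RA PN3 replicate 3) and -0.54 in SeD (SE 0.136, edgeR adjusted p = 0.00495), and -0.36 in SeD without replicate 1 of O2 (edgeR adjusted p = 0.0358).

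Smad6 (chr9:63860341-63929793), the Smad that restrains mainly the BMP arm, was at 158, 156 and 159 CPM in SeD RA and at 94.3, 142 and 103 CPM in SeD O2. This was a log2 fold change of -0.48 (SE 0.137, edgeR adjusted p = 0.00988), and without replicate 1 it was -0.34 (edgeR adjusted p = 0.0727). In SeS, 134, 132 and 167 CPM in RA stood against 106, 115 and 132 CPM in O2, with a log2 fold change of -0.30 (SE 0.137) that was not called (edgeR adjusted p = 0.108).

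After 24 h, at PN1, few of the genes differed between the gases. In SeS none of the 10 was called by edgeR's quasi-likelihood test, where 0.0126% of all genes were called lower. At an unadjusted p under 0.05 the count was 1 of 10, beside 15.4% of all genes. It was Bmpr2, at -0.31 (SE 0.149, edgeR adjusted p = 0.317), which limma's voom called and DESeq2 did not. Bmpr2 was at 443, 459 and 484 CPM in SeS RA PN1 and at 384, 358 and 373 CPM in SeS O2 PN1, without overlap. The SeS O2 group includes the library with the conflicting oxygen label, which held the 358 CPM.

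In SeD at PN1 Tgfb1 was the 1 gene edgeR called lower, where 1.1% of all genes and 1.83% of those of at least 5 CPM were called lower. Tgfb1 was at 74.9, 64.2 and 79.5 CPM in RA and at 48.1, 51.5 and 46.7 CPM in O2. The groups lay well apart, and the log2 fold change was -0.58 (SE 0.109, edgeR adjusted p = 0.00925, and 0.0586 without SeD O2 PN1 replicate 3). Smad7 was next, at 61, 46.5 and 61.3 CPM in RA and at 35.7, 46.4 and 40.9 CPM in O2. Its log2 fold change of -0.46 (SE 0.136) missed the threshold in edgeR (adjusted p = 0.0709) and passed it in DESeq2 (adjusted p = 0.00155) and in limma's voom (adjusted p = 0.00092). Bmpr2, at -0.34 (SE 0.149, edgeR adjusted p = 0.196), also passed in DESeq2 (adjusted p = 0.0205) and in limma's voom (adjusted p = 0.0076). Eng was not called at PN1, with 174, 198 and 124 CPM in SeD O2 against 172, 163 and 187 CPM in SeD RA, and an interval of its log2 fold change from -0.40 to 0.25.

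As the mean over both ages, with 6 libraries against 6, O2 lowered 2 of the 10 genes in SeS (Bmpr2, log2 fold change -0.33, SE 0.105, and Tgfb1, -0.26, SE 0.077), where 7.42% of all genes were called lower. In SeD 7 were lower, where 9.18% of all genes were. The smallest adjusted p from edgeR was that of Tgfb1 in SeD (0.000123, log2 fold change -0.51, SE 0.0771), followed by Smad7 (0.00114, -0.50, SE 0.0963) and Bmpr2 (0.0026, -0.49, SE 0.106). Tgfb3, Tgfbr2 and Bmp4 were not among them. The Bmpr2 call in SeS was lost when the library with conflicting oxygen labels was placed in SeS RA PN1 (edgeR adjusted p = 0.114) or left out (0.0629). The SeS count ranged from 0 (without SeS RA PN1 replicate 3) to 4 when single libraries were left out. The SeD count was 6 without SeD O2 PN3 replicate 1, with the call of Acvrl1 lost. It was 4 with only the groups compared, and 4 without the 3 libraries with the most Alb.

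Whether the response to O2 differed between the diets was tested directly. At PN1 and at PN3, edgeR's quasi-likelihood test of diet by gas called none of the 10 and 0% of all genes. At PN1, 2 of 10 had an unadjusted p under 0.05, beside 17.1% of all genes, namely Tgfb1 (difference of log2 fold changes -0.47, SE 0.154, edgeR adjusted p = 0.108) and Smad7 (-0.44, SE 0.192, edgeR adjusted p = 0.232). Both passed in limma's voom and Tgfb1 in DESeq2 (adjusted p = 0.0316). At PN3, 0 of 10 had an unadjusted p under 0.05 and voom and DESeq2 called none. The larger number of calls in SeD at PN3 was therefore not shown to differ from that in SeS. The difference of log2 fold changes at PN3 ran from -0.42 for Tgfb2 (95% interval -0.96 to 0.12) to -0.03 for Tgfb1 (-0.35 to 0.29). Without SeD O2 PN3 replicate 1 that of Tgfb2 was -0.18 (SE 0.191).

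The diets themselves were compared in each gas. In RA, edgeR's quasi-likelihood test called 0 of the 10 genes different between SeD and SeS at PN1, where 14.6% of all genes were called in either direction, at PN3 (0.0126% of all genes) and over both ages (0.0126%). None had an unadjusted p under 0.05 in these 3 comparisons. DESeq2 called none, and limma's voom called 1, Bmpr2 at PN1 (log2 fold change -0.27, adjusted p = 0.00868). The 10 log2 fold changes in RA at PN3 ran from -0.08 for Acvrl1 to 0.13 for Smad6, and the 95% interval for Tgfbr2 was from -0.30 to 0.31. In RA at PN1 they ran from -0.17 for Bmpr2 to 0.19 for Eng, with 10 of 10 genes overlapping between the diets.

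In O2, 0 of the 10 genes were called by edgeR at PN1 (0.0126% of all genes in either direction), at PN3 (0.143%) or over both ages (0.155%), and DESeq2 and limma's voom called none. Unadjusted p under 0.05 were found for 2 genes at PN1 (Tgfb1, Smad7), 2 at PN3 (Tgfb2, Bmpr2) and 3 over both ages (Tgfb1, Tgfb2, Bmpr2), all lower in SeD, beside 4.52%, 15.9% and 14.1% of all genes. Tgfb1 in O2 at PN1 was at 48.1, 51.5 and 46.7 CPM in SeD and at 61.8, 64.2 and 56 CPM in SeS. The 2 groups did not overlap, and its log2 fold change was -0.32 (SE 0.109, unadjusted p = 0.00861, edgeR adjusted p = 1). Bmpr2 in O2 at PN3 was at 257, 412 and 335 CPM in SeD and at 418, 418 and 413 CPM in SeS, a log2 fold change of -0.32 with a 95% interval from -0.63 to -0.01. It passed (edgeR adjusted p = 0.0464) without SeD O2 PN3 replicate 2 and was at -0.16 (edgeR adjusted p = 0.929) without replicate 1. Without replicate 1, Tgfb2 went from -0.39 to -0.15 and the median of the 10 genes from -0.20 to -0.01.

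**Figure D3:**
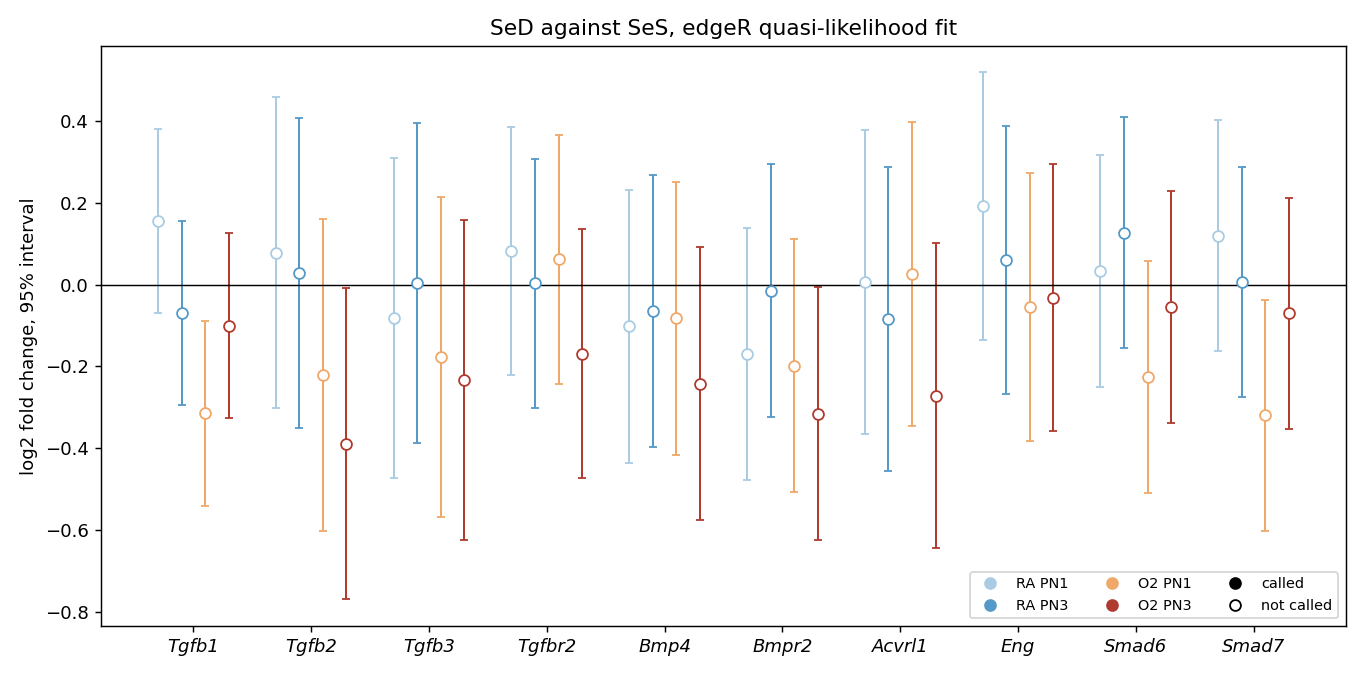
Log2 fold change of SeD against SeS for each gene in RA and O2 at PN1 and PN3 (points) with 95% intervals from edgeR's quasi-likelihood fit, 3 libraries per group. All points are open, since 0 of 10 passed the threshold in any of the 4 comparisons. The RA points lie between -0.17 (Bmpr2) and 0.19 (Eng), and in O2 at PN3 all 10 lie below 0, of which 5 lie above 0 without SeD O2 PN3 replicate 1.

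Between PN1 and PN3, Eng rose in RA and was not called in O2. In SeS RA it went from 134, 157 and 166 CPM at PN1 to 244, 222 and 280 CPM at PN3, a log2 fold change of 0.71 (SE 0.159, edgeR adjusted p = 0.0321), where 0.743% of all genes were called higher. Each PN3 library was above each PN1 library. In SeD RA it went from 172, 163 and 187 CPM to 210, 282 and 286 CPM, a log2 fold change of 0.58 (SE 0.158, edgeR adjusted p = 0.013). In O2 the log2 fold change was -0.08 in SeS (95% interval -0.41 to 0.25) and -0.06 in SeD (-0.39 to 0.27). The SeS RA call was lost when any 1 of 5 libraries was left out, with adjusted p up to 0.275.

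Tgfb2 and Smad6 were also called higher at PN3 in SeD RA, and 5.28% of all genes were called higher there. Tgfb2 went from 109, 94.1 and 127 CPM to 135, 171 and 168 CPM (log2 fold change 0.52, SE 0.184, edgeR adjusted p = 0.0446). Smad6 went from 120, 104 and 135 CPM to 158, 156 and 159 CPM (log2 fold change 0.40, SE 0.137, edgeR adjusted p = 0.0408). Neither gene overlapped between the ages, but the 3 calls fell to 0 when only these groups were fitted, and also without SeD RA PN1 replicate 2, SeD RA PN3 replicate 2 or SeD RA PN3 replicate 3. In SeS RA, Tgfb2 was at 80.8, 120 and 112 CPM at PN1 and at 151, 161 and 153 CPM at PN3, a log2 fold change of 0.57 (SE 0.184) that edgeR did not call (adjusted p = 0.133) and DESeq2 did (adjusted p = 0.0275).

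In O2, edgeR called 0 of the 10 higher between the ages, where 0.0797% of all genes were called higher in SeS and 0.336% in SeD. In each diet 1 gene had an unadjusted p under 0.05, beside 9.81% of all genes in SeS and 17.5% in SeD. They were Tgfb2 in SeS (log2 fold change 0.41, SE 0.183) and Acvrl1 in SeD (-0.53, SE 0.18), and limma's voom called both while DESeq2 called none. Acvrl1 was at 319, 358 and 188 CPM in SeD O2 at PN1 and at 167, 258 and 174 CPM at PN3. Replicate 3 at PN1 lay within the range of PN3, and without it the change was -0.77 (edgeR adjusted p = 0.0109).

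The difference of the O2 effect between the ages was largest for Eng, at -0.79 in SeS (SE 0.223, unadjusted p = 0.00192, edgeR adjusted p = 0.294) and -0.64 in SeD (SE 0.223, unadjusted p = 0.00956, edgeR adjusted p = 0.0526). EdgeR called 0 of the 10 genes in this test, where 0% of all genes were called in SeS and 17.9% in SeD. Unadjusted p under 0.05 were found for 2 genes in each diet, Eng and Smad7 in SeS and Eng and Acvrl1 in SeD, beside 9.25% and 30.7% of all genes. DESeq2 called none, while limma's voom called Eng in both diets, with adjusted p of 0.0262 and 0.00451.

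Other genes of the pathway were taken from 7 lists of 76 genes in all, and all 76 were measured. At PN3 in O2, 7 were higher and 16 lower in SeS. There 16.1% of all genes were called higher and 11.5% lower (4.28% and 19.5% of those of at least 5 CPM). In SeD, 9 were higher and 24 lower. There 23.7% of all genes were called higher and 12.2% lower (8.43% and 20.5% of those of at least 5 CPM). At PN1 edgeR called 0 in SeS (2 of 76 had an unadjusted p under 0.05), and in SeD Gdf11 and Gata2 were lower. Without SeD O2 PN3 replicate 1, 9 were higher and 16 lower in SeD.

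**Figure D4:**
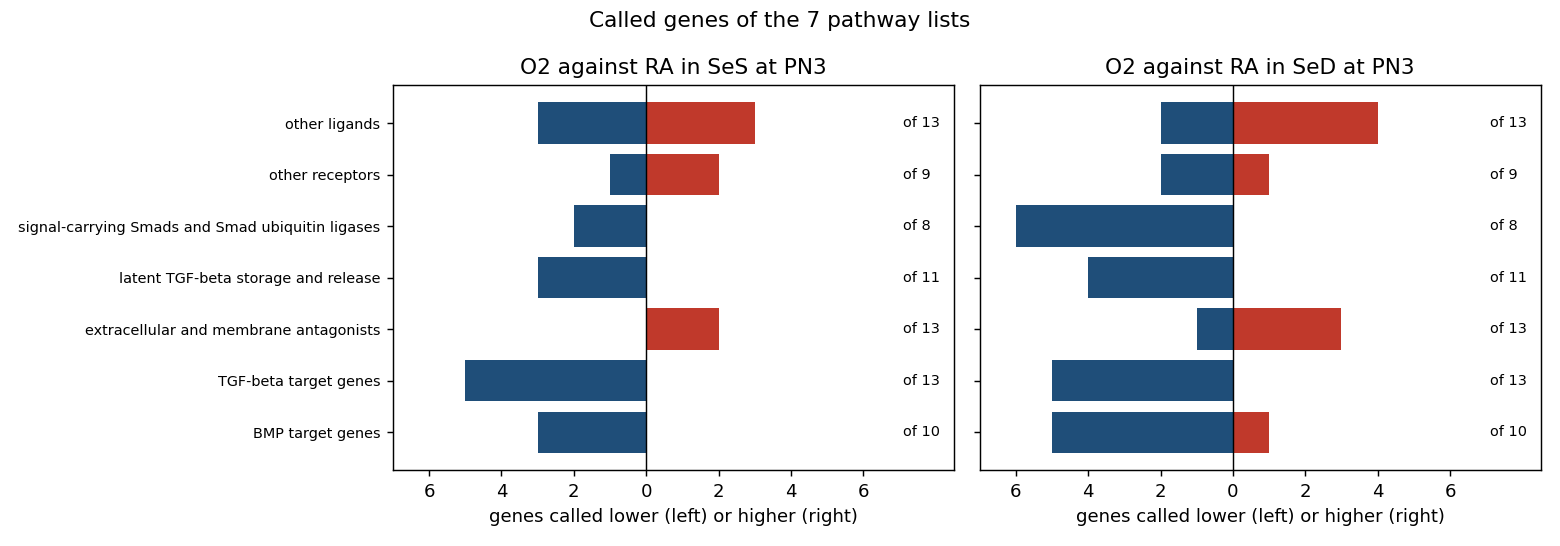
Number of genes called lower (blue, left) or higher (red, right) in O2 against RA at PN3, for each of the 7 pathway lists, in SeS and SeD. The number measured stands at the right of each bar. In SeD 6 of 8 signal-carrying Smads and Smad ubiquitin ligases were lower and none was higher, and the antagonists had 3 higher and 1 lower of 13.

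Among the other ligands, genes moved in both directions. Gdf15, a distant family member released by stressed cells, rose from 0.968, 0.385 and 0.533 CPM in SeS RA to 4.4, 4.95 and 4.3 CPM in SeS O2 (log2 fold change 2.86, SE 0.323, edgeR adjusted p = 8.19e-05). It rose by 2.42 in SeD (SE 0.314). Inhba, which encodes the subunit of activin A, was higher by 0.96 in SeS and by 1.37 in SeD on the log2 scale (edgeR adjusted p = 0.00577 and 0.000488). Gdf11 and Bmp6 were lower, at -0.89 and -0.65 in SeS and at -0.91 and -0.95 in SeD. Inhbb was called higher and Bmp1, a protease that processes matrix proteins, lower in SeS, and Bmp7 higher in SeD, and diet by gas called none of them. Gdf2 (BMP9, a ligand of ALK1 made mainly by liver) was called higher in SeD from 1 library, at 18.7 CPM in SeD O2 PN3 replicate 1 and 0.45 and 0.461 CPM in the other 2. Without that library its log2 fold change was -0.53 (edgeR adjusted p = 0.475).

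Among the 9 other receptors, Acvr1, the type I BMP receptor ALK2, was lower in both diets (-0.34 in SeS, SE 0.103, and -0.31 in SeD, SE 0.103). Acvr1c, the type I receptor ALK7, was higher in both, at low levels of 0.511 to 1.08 CPM in SeD RA and 1.17 to 2.05 CPM in SeD O2. Bmpr1b was higher in SeS and Acvr2b lower in SeD. Tgfbr1, Tgfbr3, Bmpr1a, Acvr1b and Acvr2a were called in neither. Without SeD O2 PN3 replicate 1 none of the 9 was called in SeD.

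The signal-carrying Smads were lower where they were called at all. In SeS Smad5 (-0.42, SE 0.106, edgeR adjusted p = 0.00829), a BMP-arm Smad, and the shared partner Smad4 (-0.30, SE 0.103, edgeR adjusted p = 0.0366) were called. In SeD the count was 6 of 8, with Smad5 at -0.48, Smad4 at -0.36, Smad1 at -0.34 and Smad2 at -0.30 among them. Without SeD O2 PN3 replicate 1 it was 2 of 8, Smad1 and Smad5.

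Of 11 genes of latent TGF-beta storage and release, 3 were called lower in SeS and 4 in SeD, and none higher. Ltbp2, a latent-TGF-beta-binding-protein homologue of elastic fibres, was at 253 CPM on average in SeS RA and fell by 1.19 on the log2 scale in SeS (SE 0.202, edgeR adjusted p = 0.000965) and by 1.47 in SeD (SE 0.203, edgeR adjusted p = 0.000145). Fbn1, the fibrillin that anchors the latent complexes, was at -0.56 in SeS and -0.82 in SeD, and Ltbp4 at -0.51 and -0.86. The 3 were also lower without SeD O2 PN3 replicate 1. Ltbp3 was called in SeD only with that library, and the integrin genes Itgav, Itgb6 and Itgb8, whose products help to release TGF-beta, were not called with all libraries in. Without that library Itgb6 was called higher in SeD (0.42, edgeR adjusted p = 0.0209) and Itgav lower in SeS (-0.27, edgeR adjusted p = 0.0372). Ltbp1 was not called in either diet.

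Of 13 antagonists 2 were called higher and none lower in SeS, and 3 higher and 1 lower in SeD, shares of higher calls close to the 16.1% and 23.7% of all genes. Among genes of at least 5 CPM, 4.28% and 8.43% were called higher. Sostdc1 and Fst, named below, had means under 5 CPM. Dcn, which encodes the TGF-beta-binding proteoglycan decorin, rose in SeS by 1.05 (SE 0.312, edgeR adjusted p = 0.0196) and in SeD by 0.85 (SE 0.31, edgeR adjusted p = 0.0405), and was not called in SeD without replicate 1 of O2. Sostdc1, a BMP antagonist, was higher in both at very low levels, with 0.0889 to 0.186 CPM in SeS RA and 0.358 to 0.515 CPM in SeS O2. Fst, the activin-binding follistatin, was called in SeD (1.79, SE 0.39, edgeR adjusted p = 0.00223) with its libraries at 9.33, 5.71 and 2 CPM in O2 and 2.31, 1.21 and 1.39 CPM in RA. Fstl1 was lower in SeD and not called without replicate 1.

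Genes known as TGF-beta targets were lower or not called. Tgfbi, a matrix protein named for its induction by TGF-beta, was at -0.91 in SeS (SE 0.191, edgeR adjusted p = 0.00308) and -0.85 in SeD (SE 0.191, edgeR adjusted p = 0.00258). Ski, a repressor of Smad transcription, was at -0.45 and -0.51 and Col1a1 at -0.57 and -0.68. Fn1 was called lower in SeS and Postn in SeD, and without SeD O2 PN3 replicate 1 neither Col1a1 nor Postn was called in SeD while Fn1 was. Ccn2, also known as a target, was not called in SeS, at 0.53 (SE 0.269), but was called higher there without SeD O2 PN3 replicate 1 (0.57, SE 0.182, edgeR adjusted p = 0.022). Of the BMP targets, Hey1 (-0.64 in SeS, SE 0.157, and -0.89 in SeD, SE 0.158), Gata2 (-0.54 and -0.72) and Msx1 (-1.28 and -1.85) were lower in both diets. Id3, a target of BMP receptors in many cells, was lower in SeD (-0.47, SE 0.126, edgeR adjusted p = 0.00658) and not called in SeS (-0.31), nor in SeD without replicate 1. Without that library Id3 was called lower in SeS (-0.27, edgeR adjusted p = 0.035). Id1, a BMP target of the same list, was then called higher in SeS (0.46, edgeR adjusted p = 0.0039). In SeD Id1 was at 0.24 in that fit and not called. Msx2 had no count in the 3 SeD RA libraries and 0.215 to 0.431 CPM in SeD O2, too low for a fold.

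Markers of endothelium were also lower in O2 at PN3. Bulk tissue was sequenced, so that fewer cells of a type and less RNA per cell cannot be told apart. Of 10 endothelial markers 4 were called lower in SeS (Sox17, Ptprb, Cdh5 and Tie1) and 9 in SeD. Of genes of at least 5 CPM, 19.5% in SeS and 20.5% in SeD were called lower. The summed level of the markers was 3266 to 4165 CPM in SeS RA against 2594 to 3305 CPM in SeS O2. In SeD it was 3277 to 3743 CPM in RA against 1769 to 2771 CPM in O2. Without SeD O2 PN3 replicate 1, 6 of the 10 markers were lower in SeD. Of all genes, 7.55% were lower in that fit and 12.2% with the library in. The share among genes of at least 5 CPM was not taken without it. At PN1 2 were called lower in SeD (Sox17 and Cldn5), beside 1.83% of genes of at least 5 CPM. The part of endothelial cells in the changes of Eng, Acvrl1 and the others was not tested.

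Fibroblast and myofibroblast markers were lower at PN3 in 5 of 10 in SeS and 7 of 10 in SeD (4 without SeD O2 PN3 replicate 1). The shares among genes of at least 5 CPM were 19.5% and 20.5%. Their sums were 4402 to 5453 CPM in SeS RA and 3105 to 4108 CPM in SeS O2 for these markers. Macrophage markers were higher, 5 of 7 in SeS and 4 of 7 in SeD, beside 4.28% and 8.43% of genes of at least 5 CPM. Liver markers were higher in SeD at PN3 in 7 of 8, and in 0 of 8 without replicate 1 of O2. These lists moved beside the 10 genes, and their part in the results was not tested.

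**Figure D5:**
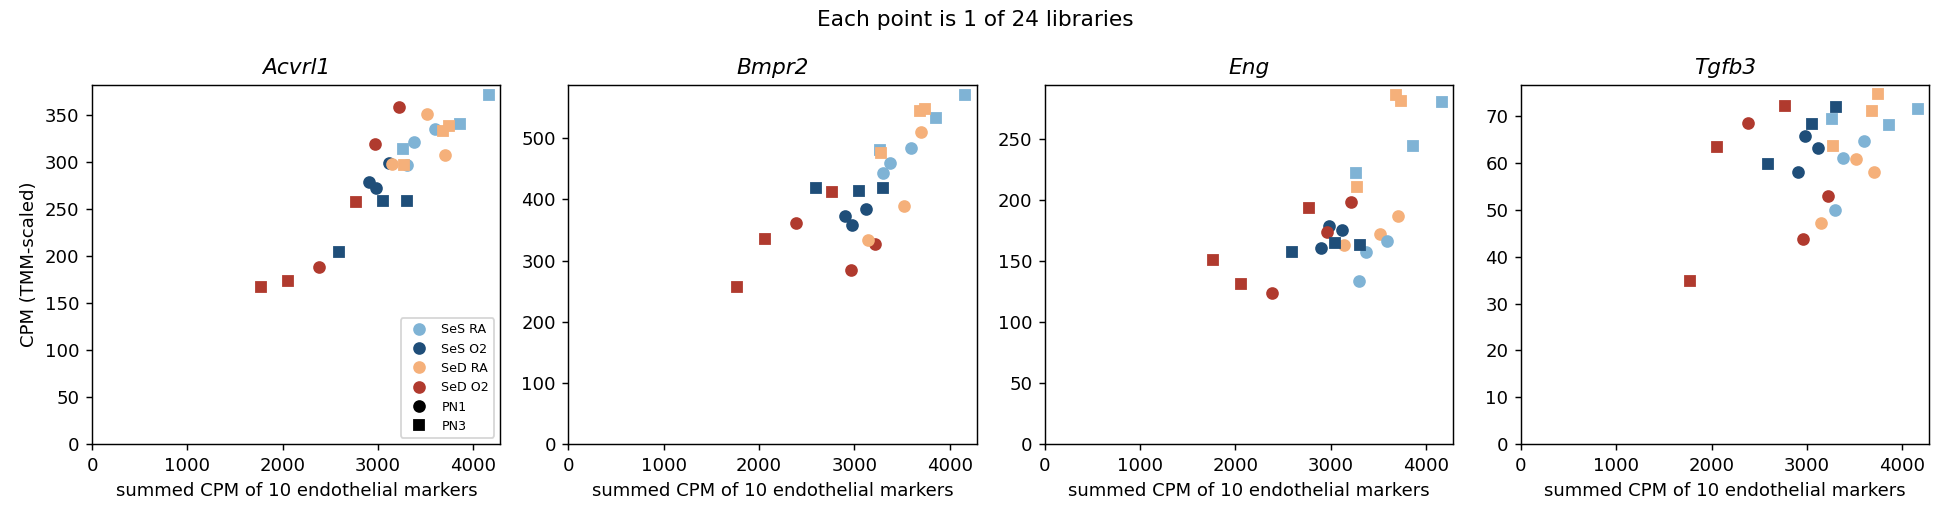
Level (CPM, scaled by TMM) of 4 of the genes against the summed CPM of 10 endothelial markers, each point 1 of 24 libraries, circles PN1 and squares PN3, both axes linear from 0. With both on the log2 scale, Acvrl1 followed the sum most closely of the 10 genes (r = 0.923) and Tgfb3 least (r = 0.482). The 3 SeD O2 PN3 libraries are at 1769 to 2771 CPM on the horizontal axis.

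Over the 24 libraries, which share gas, age and depth differences, the log2 level of Acvrl1 went with the endothelial sum at r = 0.923. Tgfbr2 followed at 0.815, Bmpr2 at 0.771 and Smad7 at 0.752, and Eng was at 0.655. Among the 10 genes themselves the 45 pairs had r from 0.258 (Tgfb3 with Acvrl1) to 0.838, with a median of 0.641. The pairs Tgfb2 with Tgfb3, Tgfb1 with Smad7, and Smad6 with Smad7 all stood at 0.838. These are descriptions and mix differences between groups with those within them. Every r over the 24 libraries includes SeD O2 PN3 replicate 1, and none was taken without it. That library held the lowest endothelial sum (1769 CPM) and the lowest value of 7 of the 10 genes.

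Genes of at least 5 CPM whose log2 level was most like that of a member over the 24 libraries were listed by Pearson r. For Acvrl1 they were Hspa12b (0.948), Elmo1 (0.943) and Kdr (0.937), the last being the endothelial VEGF receptor. For Smad7 they were Rhob (0.947), Itpkb (0.937) and Pdgfb (0.93), and for Eng Lmod1 (0.912), Slc24a3 (0.896) and Cd248 (0.895). Kdr is on the list of endothelial markers, and the genes named for Eng are not. Bmpr2 was closest to Ptpn4 (0.957), the highest r of the list, Taok1 (0.944) and Sh3glb1 (0.941), and Tgfbr2 to Lamb2 (0.942), App (0.938) and Nrp2 (0.93). Tgfb1 was closest to Iqsec2 (0.94), Rin3 (0.939) and Faap100 (0.937), Tgfb2 to Tmem178 (0.915), Htra1 (0.914) and Ntn4 (0.907), and Tgfb3 to Kank4 (0.903), Plod2 (0.897) and Ppic (0.867). Bmp4 went with Lrrc75a (0.891) and Gem (0.872), and Smad6 with Filip1l (0.876), Pcbp3 (0.873) and Spred2 (0.864), the lowest set of the 10.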

How the data were processed

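RNA of perfused lung from 24 pups was sequenced, with stranded poly(A) libraries. The authors trimmed the reads (Trimmomatic), aligned them to GRCm39 (HISAT2) and counted them per gene (featureCounts, strand setting not given in the sources used here), and the raw counts as deposited, not normalized, were used. Positions and exon lengths came from GENCODE for GRCm39. The authors' tables of DESeq2 fold changes and p-values and of normalized values were not used.

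The 57010 genes passed to edgeR 4.0.16 (R 4.3.3) were reduced to 23831 by filterByExpr, at a minimum count of 10 and a minimum total of 15. The fit used TMM factors, 8 group means over all 24 libraries and robust estimation. The 20 comparisons were tested with the quasi-likelihood test, with Benjamini-Hochberg adjustment over all genes tested. SEs were derived from the fold change and its F statistic, and intervals are 95%. The common biological coefficient of variation was 0.263. The script was tested on simulated data.

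The 10 members and the gene lists were chosen with earlier results of these data known. Named are all members in every comparison, of each pathway list up to 4 called genes per comparison by smallest p, the 3 genes of at least 5 CPM most like each member, and Alb. Some genes that this rule or the lists hold are not reported here. Pathway genes named beyond this (those not called, and Col1a1, Postn and Id3) were added after their values were seen. The replicate check used the group deviations of same-numbered libraries. Alternatives were DESeq2 1.42.0, limma 3.58.1 (voomWithQualityWeights), RLE factors, no filter, no fold threshold, only the groups compared, a replicate block, the library with conflicting labels moved, the 3 libraries highest in Alb left out at once, and each library left out. A fit without robust estimation, and the lists without SeD O2 PN3 replicate 1, were added after seeing the data. Same-numbered libraries were not more alike (mean r 0.0166 at PN1 and -0.0489 at PN3), so the numbers were not taken as pairs. No 2 libraries of a group agreed within sampling noise (lowest chi-square per degree of freedom 8.57). Intervals cover counting and library spread only as far as 3 libraries per group show it. Figures were drawn with matplotlib 3.10.9.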

Additional observations from a re-analysis of the deposited data

How the results depend on the processing

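No called log2 fold change of the 10 genes turned its sign under the alternatives. Among the pathway genes, that of Gdf2 for O2 in SeD at PN3 turned from 3.26 to -0.53 without SeD O2 PN3 replicate 1, as did the median of the liver markers, from 6.88 to -0.35. The number of the 10 genes called moved by over 1.5 times as follows. With limma's voomWithQualityWeights it was 1 in place of 0 for O2 in SeS at PN1, SeD against SeS in RA at PN1, PN3 against PN1 in SeS O2 and in SeD O2, and gas by age in SeS and in SeD. With it, it was also 2 in place of 0 for diet by gas at PN1, 2 in place of 1 for PN3 against PN1 in SeS RA, 3 in place of 1 for O2 in SeD at PN1 and 4 in place of 2 for O2 in SeS over both ages. With DESeq2 it was 3 for O2 in SeD at PN1, 1 for diet by gas at PN1 and 2 for PN3 against PN1 in SeS RA. RLE factors gave 2 for O2 in SeD at PN1 and 1 for O2 in SeS over both ages, and no filter gave 2 and 4 for these and 1 in place of 3 for PN3 against PN1 in SeD RA. With only the groups compared it was 1 in place of 8 for O2 in SeD at PN3, 0 for PN3 against PN1 in SeD RA, 4 for O2 over both ages in SeS and in SeD (in place of 7 there), and 1 for PN3 against PN1 in SeS O2 and for gas by age in SeS. Without the 3 libraries with the most Alb it was 5 for O2 in SeD at PN3, 2 for O2 in SeD at PN1, 2 for PN3 against PN1 in SeS RA, 5 for PN3 against PN1 in SeD RA and 4 for O2 in SeD over both ages. The cause of these shifts was not tested, except that fitting only the groups compared uses fewer libraries.

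When single libraries were left out, the count ran from 0 to 3 for O2 in SeD at PN1, from 2 to 5 for O2 in SeS at PN3, from 5 to 10 for O2 in SeD at PN3, from 0 to 1 for SeD against SeS in O2 at PN3 and for PN3 against PN1 in SeD O2, from 0 to 2 for PN3 against PN1 in SeS RA and for gas by age in SeD, from 0 to 4 for PN3 against PN1 in SeD RA and for O2 in SeS over both ages, and from 6 to 8 for O2 in SeD over both ages. The highest count for O2 in SeD at PN3, 10, came without SeD O2 PN3 replicate 2, and the highest for O2 in SeD at PN1, 3, without SeD RA PN1 replicate 2, while that comparison had 0 without SeD O2 PN1 replicate 3. The replicate block changed 1 call, that of Bmp4 in SeD at PN3 (adjusted p = 0.058). With RLE in place of TMM the median log2 fold change of all genes moved by 0.137 for gas by age in SeD and by less than 0.1 elsewhere, and the share of called genes that were lower in O2 in SeD at PN1 went from 44% to 66.2%. With 3 libraries per group, changes of 0.3 or less on the log2 scale were often within the spread.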
